A study of Mus musculus with 4 samples.

Results

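The genes described here encode the AP-1 transcription factors and other factors of the immediate early response. They are the Jun family (Jun, Junb, Jund), the Fos family (Fos, Fosb, Fosl1, Fosl2) and Atf3, Egr1 and Myc. The 10 genes were chosen by symbol from 23631 genes with a promoter count, and each was represented by its RefSeq transcript with the highest mean count. Chromatin was precipitated with an antibody against acetylated histone H3, a mark of active promoters, from the left ventricle of male C57BL6 mice aged 10 to 12 weeks. All 4 groups had surgery and subcutaneous injections, given 2 times daily for 4 weeks. Sham Veh had a sham operation and the solvent DMSO, and Sham TSA had a sham operation and trichostatin A (TSA), which blocks histone deacetylases, dissolved in DMSO at 0.6 mg per kg per day. TAC Veh had transverse aortic constriction (TAC), a narrowing of the aorta that loads the ventricle with pressure, and DMSO, and TAC TSA had TAC and TSA. Each group is 1 library, and the labels do not say how many animals went into it, so no value below has a replicate. RNA levels were not analysed here. In ventricle tissue, fewer cells of a type and less acetylation per cell cannot be told apart.

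AP-1 is a dimer of basic leucine zipper proteins. Jun proteins pair with each other or with a Fos protein, and the pair binds a short palindromic DNA site. Immediate early genes are switched on within minutes of a stimulus from promoters that are already open, without new protein synthesis, and most of their messages decay quickly. In the heart, Fos, Jun, Egr1, Atf3 and Myc are known as early responders to pressure load, and a lasting load does not keep their messages at the early peak.

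Promoter windows of 300 bases (250 before to 50 after the annotated start) were found for 7 of the 10 genes in the RefSeq table of the GRCm38.p6 build. Egr1, Fosl1 and Myc were not matched. The deposited counts use the mm9 build and a window whose length is not given, so these sequences show what the promoters are made of and not the exact stretch that was counted. The windows of the AP-1 genes that stood 1st, 2nd, 3rd and 5th in acetylation are shown. Capitals mark the core of the cAMP response element (TGACG), the AP-1-like element (TGACNTCA) and TATA boxes (TATAAA), each on either strand. The AP-1-like element is a full palindrome only where N is G. Jun lies at chr4:95052173-95052472 on the minus strand, Junb at chr8:84978699-84978998 on the minus strand, Fosl2 at chr5:32136222-32136521 on the plus strand and Fos at chr12:85473640-85473939 on the plus strand. Each is printed 5′ to 3′ in the direction of transcription.
Jun: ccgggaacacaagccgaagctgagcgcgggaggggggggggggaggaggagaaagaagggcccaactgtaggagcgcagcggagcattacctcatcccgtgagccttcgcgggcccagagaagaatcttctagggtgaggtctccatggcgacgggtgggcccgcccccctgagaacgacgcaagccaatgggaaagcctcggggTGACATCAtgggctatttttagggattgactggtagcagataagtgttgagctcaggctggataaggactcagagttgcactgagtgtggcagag
Junb: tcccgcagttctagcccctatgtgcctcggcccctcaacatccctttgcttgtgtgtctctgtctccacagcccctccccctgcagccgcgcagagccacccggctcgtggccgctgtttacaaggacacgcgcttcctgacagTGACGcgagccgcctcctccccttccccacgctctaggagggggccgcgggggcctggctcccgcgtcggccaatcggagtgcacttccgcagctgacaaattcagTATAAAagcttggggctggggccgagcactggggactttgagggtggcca
Fosl2: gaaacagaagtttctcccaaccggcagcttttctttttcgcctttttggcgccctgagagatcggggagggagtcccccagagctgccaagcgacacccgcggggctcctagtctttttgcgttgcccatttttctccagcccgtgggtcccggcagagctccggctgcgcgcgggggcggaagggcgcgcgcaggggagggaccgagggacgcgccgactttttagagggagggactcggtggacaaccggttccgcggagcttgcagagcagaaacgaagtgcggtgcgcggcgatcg
Fos: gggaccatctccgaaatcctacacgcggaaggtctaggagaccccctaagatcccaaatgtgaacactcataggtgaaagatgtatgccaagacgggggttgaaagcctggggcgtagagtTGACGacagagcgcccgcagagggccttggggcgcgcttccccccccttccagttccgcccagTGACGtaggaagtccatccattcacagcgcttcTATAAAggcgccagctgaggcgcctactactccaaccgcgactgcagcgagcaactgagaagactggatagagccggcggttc

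The Jun window held the AP-1-like element as TGACATCA, with its first base 45 bases before the start. The Fos window held TGACG at 129 and 66 bases before the start and a TATA box at 33 bases before it. Junb held TGACG at 106 bases before the start and a TATA box that begins at base 1, the annotated start. The Fosl2 window held none of these motifs and was the richest of the 7 in CG dinucleotides, with 32. Of the 7 windows, 4 held TGACG (Atf3, Fos, Fosb and Junb), against 20.8% of all 32851 windows in the table. The AP-1-like element TGACNTCA was found in 1 of 7 and in 8.83% of all, and TATAAA in 2 of 7 and 13.6% of all. The GC box GGGCGG was found in 5 of 7 and 35.7% of all, and CCAAT in 3 of 7 and 37.4% of all. The AP-1 site TGANTCA (7.81% of all), the E-box CACGTG (7.15% of all) and the CArG box (1.63% of all), the core of the site bound by serum response factor, were in none of the 7. Bases outside these windows, and the promoters of Egr1, Fosl1 and Myc, were not searched, so sites may lie there. TGACG overlaps the AP-1-like element where the base N of that element is G. The median GC content was 64.7% over the 7 windows and 52.7% over all windows, and the median number of CG dinucleotides was 21 against 7. The Jund window differed from the other 6, with 46.7% GC and 3 CG dinucleotides.

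Promoter reads numbered 6842296 for TAC TSA, 8873302 for TAC Veh, 9612616 for Sham Veh and 9905553 for Sham TSA. Libraries were brought to a common scale with TMM (trimmed mean of M-values), and levels are given as scaled counts per promoter. Promoters of 1278 olfactory and vomeronasal receptor genes, which are silent in heart, took between 0.413% (Sham Veh) and 0.663% (TAC TSA) of the reads. Defining markers of cardiomyocytes (8 of 8), fibroblasts (7 of 7), endothelial cells (6 of 6), leukocytes (6 of 7) and smooth muscle (4 of 4) passed the filter on low counts, and none was at 0 in any library. The summed cardiomyocyte marker level was lowest for TAC Veh (2060), against 3189 for Sham Veh, 3549 for TAC TSA and 3665 for Sham TSA. In the labels, only the sham libraries refer to an earlier deposited record, so surgery and any difference in when the libraries were made cannot be told apart.

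All 10 factors had well-filled promoters in all 4 libraries, and with TMM scaling the levels of each gene lay within 1.29-fold between libraries. With libraries scaled on the receptor promoters, the log2 ratio of TAC TSA over Sham TSA reached −0.92 (Fosl2). The median of the whole table moved by −0.65 there. All 10 passed the filter of a mean count of at least 10, and their mean levels ran from the percentile 56.7 of the 22835 genes kept (Fosl1) to the percentile 99.98 (Jun). The order between genes assumes promoter windows of equal length, since the counts are not per length. With TMM scaling the highest library exceeded the lowest by 1.05-fold (Fosl1) to 1.29-fold (Myc). Together the 10 promoters took 0.129% of the reads of all genes kept for TAC Veh (Clopper-Pearson 95% limits 0.127 and 0.132) and 0.124% for Sham Veh (0.122 and 0.127). The share was 0.121% for Sham TSA (0.118 and 0.124) and 0.120% for TAC TSA (0.117 and 0.123).

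**Figure D1:**
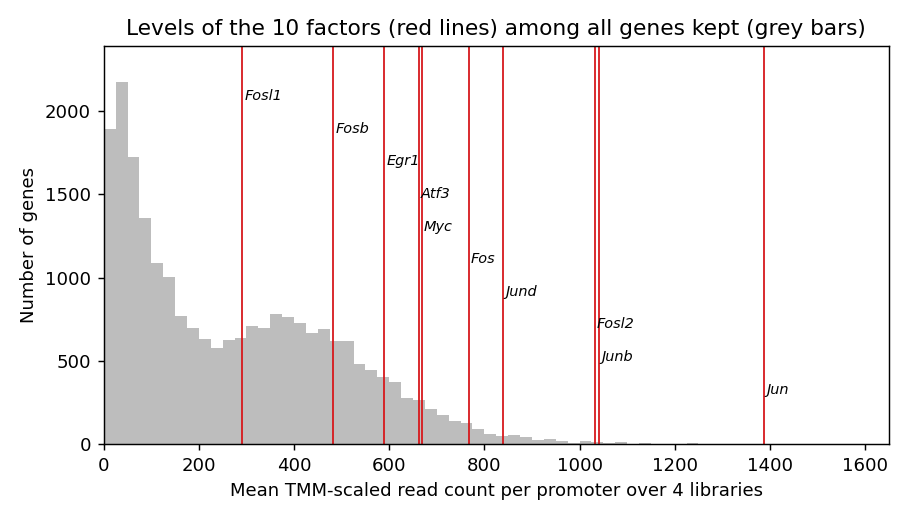
Grey bars count genes (vertical axis) by mean TMM-scaled promoter read count over the 4 libraries (horizontal axis, bins of 25), and red lines mark the 10 factors. Jun, at 1389, lies at the far right of the distribution, and Fosl1, at 291, near its middle.

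Jun stood highest, and Junb, Fosl2 and Jund came after it. Jun, the main partner of Fos proteins, had a scaled count of 1478.5 for Sham Veh, 1328.8 for Sham TSA, 1339.5 for TAC Veh and 1407.6 for TAC TSA. Sham Veh was its highest library, 1.11-fold above the lowest, Sham TSA. Junb, which can also hold Jun activity back, had 1002.6, 1009.9, 1123.4 and 1027.7 in the same order, with TAC Veh above the others. Jund, the most constitutively made Jun protein, had 866.5, 817.0, 864.7 and 808.4, and was the 2nd steadiest of the 10 at 1.07-fold between its highest and lowest library.

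Among the Fos family the order was Fosl2, Fos, Fosb and Fosl1. Fosl2 (Fra-2), which lacks the strong activation domain of Fos, had 1031.3 for Sham Veh, 1084.2 for Sham TSA, 1119.4 for TAC Veh and 895.6 for TAC TSA. Fos itself had 809.1, 772.6, 823.3 and 662.7. In both, TAC TSA was the lowest library and TAC Veh the highest. Fosb had 522.1, 510.9, 452.1 and 445.9, with both TAC libraries below both sham libraries. Fosl1 (Fra-1), the other member without the strong activation domain, had 300.0, 285.3, 290.2 and 290.2, the weakest promoter and the narrowest range of the 10.

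Outside both families, Myc, a growth regulator that binds DNA with MAX, had 594.4 for Sham Veh, 710.1 for Sham TSA, 769.0 for TAC Veh and 602.9 for TAC TSA. Sham TSA and TAC Veh were the high libraries for Myc, and Sham Veh and TAC TSA the low ones. All 4 RefSeq transcripts of Myc carried the same counts, as did both of Jund. Atf3, a stress-induced factor of the ATF/CREB family, had 700.8, 654.0, 661.4 and 636.5, and Egr1, a zinc finger factor, had 603.6, 564.3, 648.6 and 541.9. TAC TSA was the lowest library for 6 of the 10 genes. The share of all genes with TAC TSA lowest was not counted, so this number cannot be called particular to these factors. Of the 9880 other genes at levels between those of Fosl1 and Jun, 7083 were lower in TAC TSA than in TAC Veh. Against Sham TSA 8191 of them were lower. In the order of mean levels, Junb and Fosl2 (1.01-fold apart) and Myc and Atf3 (1.01-fold) each changed places between libraries, with the first above the second in 2 of 4, and the other neighbours kept their order in 4 of 4.

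**Figure D2:**
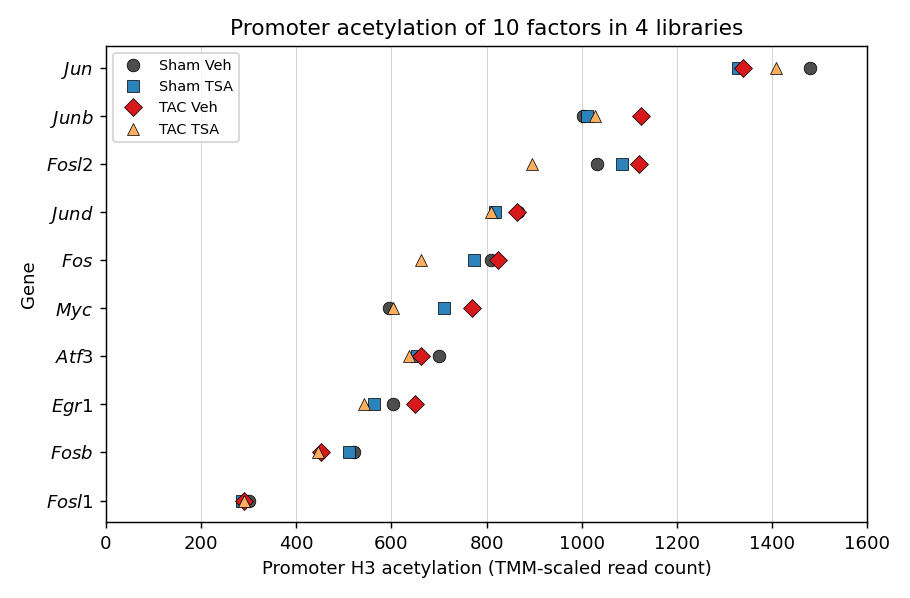
Each row is a gene and each point a library, with the TMM-scaled promoter read count on the horizontal axis (1 library per group, no error bars). The points of a gene lie close together relative to the distance between Jun and Fosl1, and Myc has the widest relative spread, 1.29-fold.

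For each comparison of 2 libraries, the ratio of scaled counts is stated on the log2 scale beside an exact conditional 95% interval, which covers counting error only and compares libraries, not conditions. A promoter was counted as apart where the ratio was at least 1.5-fold and the interval excluded a ratio of 1. None of the 10 genes was apart in any of the 4 comparisons. All 40 intervals lay inside 1.5-fold, the widest bounds being 0.52 (1.44-fold higher, Myc in TAC Veh over Sham Veh) and −0.52 (1.43-fold lower, Myc in TAC TSA over TAC Veh). These bounds hold for TMM scaling. With libraries scaled on the receptor promoters, 4 of the 10 were apart and lower in TAC TSA over TAC Veh and 9 in TAC TSA over Sham TSA. That scaling moves the median ratio of the whole table by −0.40 and −0.65 there, and by −0.28 for TAC Veh over Sham Veh, where 0 of the 10 were apart. Other genes at the levels of the 10 then had medians of −0.48 (TAC TSA over TAC Veh) and −0.77 (TAC TSA over Sham TSA). The medians of the 10 were −0.52 and −0.70. How many of all genes were apart with that scaling was not counted.

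**Figure D3:**
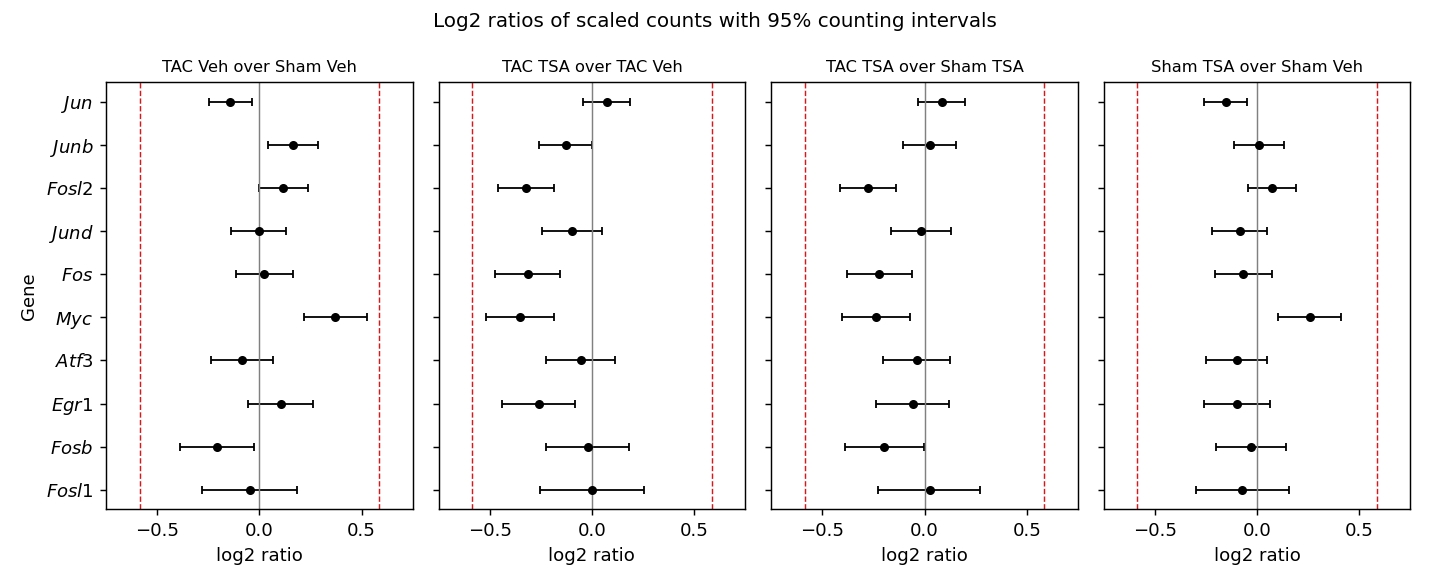
Each panel is a comparison of 2 libraries, with the log2 ratio of TMM-scaled counts on the horizontal axis and genes as rows. Points are ratios, bars are 95% counting intervals and dashed red lines mark 1.5-fold; no bar reaches a dashed line.

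The effect of pressure overload on these promoters was read from TAC Veh over Sham Veh. The 10 genes were split, 5 above 0 and 5 below, with a median log2 ratio of 0.01, against −0.0005 over all genes. None was apart, where 2.51% of all genes and 0.354% of the 9880 other genes at levels between those of Fosl1 and Jun were. By the interval alone, 4 of 10 excluded a ratio of 1, against 13.0% of all genes and 16.1% of those at like levels. Myc was 1.29-fold higher in TAC Veh (0.37, 0.22 to 0.52), on 779 counts against 642. Junb was 1.12-fold higher (0.16, 0.04 to 0.29). Fosb (−0.21, −0.39 to −0.03) and Jun (−0.14, −0.25 to −0.04) had intervals below 0. With loess scaling on mean count neither interval lay below 0 (Fosb −0.18, Jun −0.08), while that of Fosl2 (0.18) then lay above 0 with those of Junb and Myc. Receptor-promoter scaling put Myc at 0.09 and Junb at −0.12. No interval of the 10 then lay above 0 and 8 lay below it, a share not counted over all genes. That scaling moves the median of all genes by −0.28. With TMM scaling Fos was at 0.03 (−0.11 to 0.16) and Egr1 at 0.10 (−0.05 to 0.26), and both intervals include 0. Beside these values, 5 of 8 cardiomyocyte marker promoters were apart and lower (median −0.60), and the medians of fibroblast and leukocyte markers were 0.41 and 0.38. Their part in the values of the 10 genes was not tested.

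The effect of TSA in overloaded ventricles was read from TAC TSA over TAC Veh. Of the 10 genes 8 were below 0, as were 11365 of all 22835 genes and 7083 of the 9880 others at like levels. The median log2 ratio of the 10 was −0.11, against 0.00 over all genes and −0.08 over the other genes at like levels. None was apart, where 4.40% of all genes and 0.617% of those at like levels were. By the interval alone, 4 of 10 lay below 0, where 18.5% of all genes excluded a ratio of 1 in either direction and 19.1% of those at like levels lay below 0. These were Myc (−0.35, −0.52 to −0.19; 484 counts against 779), Fosl2 (−0.32, −0.46 to −0.19), Fos (−0.31, −0.47 to −0.15) and Egr1 (−0.26, −0.44 to −0.08). Jun was at 0.07 (−0.04 to 0.19), Junb at −0.13 (−0.26 to 0.00) and Jund at −0.10 (−0.25 to 0.05). The interval of Junb ended at 0 and lay below it with no filter on low counts. Here 7 of 8 cardiomyocyte marker promoters were apart and higher (median 0.72). Leukocyte markers were at a median of −0.41 and fibroblast markers at −0.27, each list with 1 promoter apart and lower. Their part was not tested.

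TAC TSA over Sham TSA compared surgery between treated animals. Of the 10 genes 7 were below 0, as were 11877 of all 22835 genes and 8191 of the 9880 others at like levels. The median of the 10 was −0.05, against −0.01 over all genes and −0.12 over the other genes at like levels. None was apart, where 7.40% of all genes but 0.0911% of those at like levels were. By the interval alone, 4 of 10 lay below 0, where 24.2% of all genes excluded a ratio of 1 and 27.4% of those at like levels lay below 0. The 4 were Fosl2 (−0.28, −0.41 to −0.14), Myc (−0.24, −0.40 to −0.07), Fos (−0.22, −0.38 to −0.06) and Fosb (−0.20, −0.39 to −0.00). Jun was at 0.08 (−0.03 to 0.20) and Junb at 0.03 (−0.11 to 0.16). With loess scaling on mean count the median of the 10 turned to 0.07, with Fosl2 at −0.17, Myc at −0.12, Fos at −0.10 and Fosb at −0.073. Of these 4 intervals only that of Fosl2 then lay below 0, and those of Jun (0.18) and Junb (0.13) lay above it. With DESeq2 size factors the interval of Fosb reached 0. The median of the 6 leukocyte markers was −0.39, and 1 was lower and apart. The medians of cardiomyocyte and fibroblast markers were −0.01 and −0.02. Their part was not tested.

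The effect of TSA in sham-operated mice was read from Sham TSA over Sham Veh. Here 7 of 10 were below 0, as were 11005 of all 22835 genes and 4407 of the 9880 others at like levels. The median of the 10 was −0.07, against 0.01 over all genes. None was apart, where 1.16% of all genes and 0.0202% of those at like levels were. By the interval alone, 2 of 10 excluded a ratio of 1, against 9.02% of all genes and 11.3% of those at like levels. Myc was 1.19-fold higher with TSA (0.26, 0.10 to 0.41; 784 counts against 642), and Jun was lower (−0.15, −0.26 to −0.05). Both this comparison and TAC Veh over Sham Veh divide by the same Sham Veh library, in which Myc was at its lowest and Jun at its highest. The remaining 8 lay between −0.10 (Atf3, −0.25 to 0.05) and 0.07 (Fosl2, −0.05 to 0.19). The median of the 6 leukocyte markers was 0.41, and 1 was higher and apart. Their summed level was 1214 for Sham TSA against 989 for Sham Veh. Cardiomyocyte markers were at 0.18 and fibroblast markers at 0.11, with none apart. Their part was not tested.

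The ratio of TAC to sham was next set side by side for vehicle and TSA, a pair of ratios that share no library. The difference between them (TSA minus vehicle) was negative for 6 genes and positive for 4. Signs of the difference were not counted over all genes. The 95% counting interval of the difference, by a normal approximation, excluded 0 for 4 of 10, where 16.2% of all genes did. The share among genes at like levels, whose intervals are of like width, was not counted. Myc differed most, from 0.37 under vehicle to −0.24 under TSA, a difference of −0.61 (−0.83 to −0.39). Fosl2 went from 0.12 to −0.28 (−0.39, −0.57 to −0.21) and Fos from 0.03 to −0.22 (−0.25, −0.45 to −0.04). With TMM scaling Jun ran the other way, from −0.14 to 0.08 (0.23, 0.07 to 0.38), but with receptor-promoter scaling it went from −0.43 to −0.57, and the difference was then negative for 10 of 10 genes. Jund (−0.01, −0.21 to 0.18), Fosb (0.01, −0.25 to 0.27) and Atf3 (0.04, −0.18 to 0.27) had nearly the same ratio under both. With 1 library per group the difference between vehicle and TSA was not tested against biological spread.

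**Figure D4:**
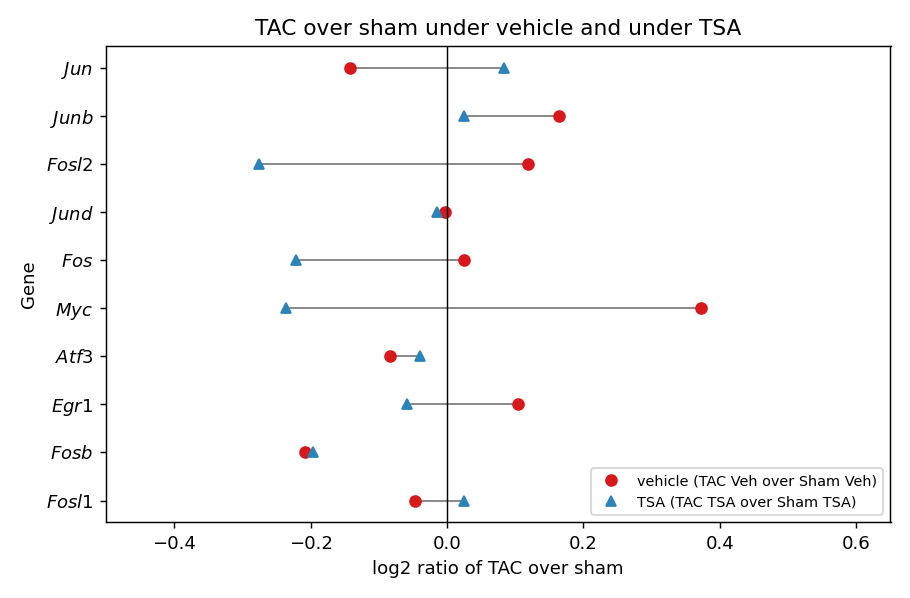
For each gene (rows), the log2 ratio of TAC over sham is shown under vehicle (red circles) and under TSA (blue triangles), joined by a line. Ratios use TMM scaling, with which the Myc line is the longest, from 0.37 to −0.24, and the Jun line runs from −0.14 to 0.08, opposite in direction to those of Fosl2 and Fos, a contrast not seen with receptor-promoter scaling.

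An additive model of surgery and drug over all 4 libraries gave the only test (edgeR quasi-likelihood, Benjamini-Hochberg over 22835 genes, threshold 0.05), with 1 residual degree of freedom, which is the interaction. For surgery 0 of 10 genes were called, where 0.0350% of all genes were. None had an unadjusted p under 0.05, where 2128 of all 22835 genes did. The fold changes ran from −0.20 for Fosb (edgeR adjusted p = 0.537) to 0.10 for Junb (edgeR adjusted p = 0.736). For the drug 0 of 10 were called, where 0.215% of all genes were. An unadjusted p under 0.05 was found for 976 of all 22835 genes, and among the 10 only for Fos. Its log2 fold change was −0.18 (edgeR adjusted p = 1.0). All 10 drug estimates were below 0, from −0.18 to −0.03, as were 49.1% of all genes and 63.9% of the other genes at like levels. DESeq2 called none of the 10 for either term, with 0 unadjusted p under 0.05 for both, and limma-voom called none, with 1 for each. Over all genes the numbers for surgery and drug were 47 and 61 with DESeq2, and 2145 and 957 with limma-voom. The model assumes that surgery and drug add, so Myc, whose ratios differed between vehicle and TSA, had estimates near 0 for both terms (0.08 and −0.04).

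In the wider pathway 5 genes were apart in at least 1 comparison. All 5 had lower scaled counts than any of the 10 factors. In TAC Veh over Sham Veh 2.51% of all genes were apart, but 0.354% of those at the levels of the factors. Among 29 other immediate early genes 2 were apart in TAC Veh over Sham Veh, where 2.51% of all genes were. Ptgs2, the inducible cyclooxygenase, was higher (0.61, 0.24 to 0.98; 150 counts against 105), and Egr4, a relative of Egr1, was lower (−0.62, −1.18 to −0.08) on 47 counts against 77. Egr4 was the only one apart in TAC TSA over TAC Veh (0.95, 0.40 to 1.51) and in TAC TSA over Sham TSA (0.80, 0.28 to 1.32, and 0.48 with loess scaling, short of 1.5-fold). Of all genes 4.40% and 7.40% were apart there. The scaled counts of Egr4 were 71.3 for Sham Veh, 51.6 for Sham TSA, 46.4 for TAC Veh and 89.7 for TAC TSA, so its TAC TSA library was the highest, unlike that of any of the 10 factors. The medians of the 29 were 0.01 for TAC Veh over Sham Veh, −0.13 for TAC TSA over TAC Veh, −0.07 for TAC TSA over Sham TSA and −0.03 for Sham TSA over Sham Veh.

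Of 15 other basic leucine zipper partners 14 were analysed, without Atf7, and none was apart in any comparison. Their medians were 0.08, −0.17, −0.20 and 0.06 in the same order of comparisons. Of all genes 2.51%, 4.40%, 7.40% and 1.16% were apart, again in that order. Among 22 upstream regulators and kinases, Mapk10, the Jun kinase JNK3, was lower in TAC Veh over Sham Veh (−0.67, −1.09 to −0.26; 79 counts against 134) and higher in TAC TSA over TAC Veh (0.93, 0.50 to 1.36). The other 21, among them serum response factor and the remaining kinases, were not apart in any comparison, and the medians of the 22 were −0.02, −0.08, −0.08 and −0.01. None of 13 MYC partners and relatives was apart, with medians of −0.04, −0.01, −0.07 and 0.06.

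Of 17 textbook AP-1 target genes 2 were apart and higher in TAC Veh over Sham Veh, beside 2.51% of all genes apart in either direction, and the median of the list was 0.14. The protease inhibitor Timp1 had scaled counts of 64.8 for Sham Veh, 62.5 for Sham TSA, 106.6 for TAC Veh and 62.3 for TAC TSA. It was high in TAC Veh alone, at 0.72 over Sham Veh (0.27 to 1.17) and −0.78 in TAC TSA over TAC Veh (−1.29 to −0.28). The stromelysin Mmp3 had 23.1, 21.7, 45.4 and 46.1, and was higher in both TAC libraries (0.97, 0.24 to 1.74 under vehicle; 1.08, 0.30 to 1.89 under TSA, and 0.54 with loess scaling). Of all genes 4.40% were apart in TAC TSA over TAC Veh and 7.40% in TAC TSA over Sham TSA. Fibroblasts can make the proteins of Timp1 and Mmp3. The summed fibroblast marker level was highest for TAC Veh (1863), against 1480 to 1570 for the other libraries. Its part was not tested. With receptor-promoter scaling Ptgs2 (0.32) and Timp1 (0.43) were below 1.5-fold in TAC Veh over Sham Veh, and Egr4 (0.55) and Mapk10 (0.52) in TAC TSA over TAC Veh. Egr4 (0.15) and Mmp3 (0.44) were below it in TAC TSA over Sham TSA. Mmp3 stayed above it in TAC Veh over Sham Veh (0.69). No gene of the 5 lists was called in the additive fit, for surgery or drug. Of their 95 analysed genes 6 for surgery and 5 for the drug had an unadjusted p under 0.05 (edgeR). Over all 22835 genes the numbers were 2128 and 976. DESeq2 called no gene of the whole table.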

How the data were processed

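Acetylated histone H3 was profiled by chromatin immunoprecipitation sequencing in 4 libraries, 1 per group. Per the labels' protocols, fixation used 1% formaldehyde for 10 minutes, and PCR ran for 15 cycles. The values the authors deposited are raw counts of reads at the promoters of RefSeq transcripts, used as deposited. BWA 0.5.9, MACS 1.4.1 and mm9 are named in the submitters' processing notes, with no role. The sources used here do not give the promoter window, the counting tool, or the handling of duplicates and input. The 6 deposited region lists were not used, since no mm9 annotation was at hand to place them at genes.

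Of 31594 RefSeq IDs, 31115 (98.5%) matched a symbol of GRCm38.p6, used for names. The 479 others held 1.11% of counts. Each gene was represented by its ID with the highest mean count, and genes averaging 10 counts or more were kept (22835). Scaling used TMM (edgeR 4.0.16, R 4.3.3). Ratios carry Clopper-Pearson conditional intervals, which treat PCR reads as independent. With 1 library per group no pairwise test was made. The additive fit used edgeR, with DESeq2 1.42.0 and limma 3.58.1 as alternatives. In edgeR its p-values rest on a spread pooled across genes and not estimated for each gene alone. Alternative scalings were DESeq2 size factors, the total count, receptor promoters and loess (fraction 0.3, statsmodels 0.14.6). The rest ran in Python 3.11.15 (scipy 1.17.1, pandas 2.3.3). The methods were tested on simulated data. All 10 genes are named in each comparison. From each list, up to 4 genes apart in a comparison, those with the largest ratios, and every gene called in the fit are named. The members and lists were chosen with earlier results of these data known.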

Additional observations from a re-analysis of the deposited data

Results flagged for a closer look

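With TMM scaling a ratio changed sign between groups for 7 of the 10 factors, and this difference was not tested. The share of all genes with such a change was not counted, so the number cannot be called particular to these factors. The TAC over sham ratio had opposite signs under vehicle and TSA for Myc (difference, TSA minus vehicle, −0.61), Fosl2 (−0.39), Fos (−0.25), Egr1 (−0.16), Jun (0.23) and Fosl1 (0.072). The TSA over vehicle ratio of Junb had opposite signs in sham and TAC (−0.14). For Egr1, Fosl1 and Junb the counting interval of the difference includes 0. The number depends on the scaling. With receptor-promoter scaling the TAC over sham ratio had opposite signs for Myc alone, and the TSA over vehicle ratio for Myc and Fosl2. With loess scaling and with the total count, 8 factors had a ratio of opposite signs. Egr1 was then above 0 under both vehicle and TSA (0.14 and 0.064 with loess, 0.13 and 0.012 with the total count), and Atf3 and Fosb were added. Groups of 1 library could not be examined for outlying samples.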

How the results depend on the processing

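With no fold threshold, the number of the 10 genes whose interval excluded a ratio of 1 was 4 in each comparison but Sham TSA over Sham Veh, where it was 2, against 0 with it. With scaling on receptor promoters, 4 genes were apart in TAC TSA over TAC Veh and 9 in TAC TSA over Sham TSA. The median log2 ratio of the 10 was then −0.27 for TAC Veh over Sham Veh, −0.52 for TAC TSA over TAC Veh and −0.70 for TAC TSA over Sham TSA. Other genes at like levels had medians of −0.31, −0.48 and −0.77 in the same order. In the additive fit the surgery estimates of Egr1 (−0.44), Junb (−0.37) and Myc (−0.40) then turned negative, and 87 genes were called for surgery and 0 for the drug, against 8 and 49 with TMM. DESeq2 called 0 genes for surgery and 0 for the drug. None of the 10 genes was called for either term in any of the 6 alternative fits, with a lowest adjusted p of 0.303 (edgeR, receptor-promoter scaling, surgery). DESeq2 size factors, the total count and loess scaling gave 0 genes apart in every comparison. No filter on low counts, another RefSeq ID and a 2-fold threshold also gave 0, but these settings could change little. All 10 genes passed the filter and none had a RefSeq ID with other counts, so the filter and the ID altered only the scaling. A 2-fold threshold cannot add genes where 1.5-fold gave 0. No paired analysis was possible because each group has 1 library and the labels carry no replicate numbers. Leaving out a library leaves the additive fit with no residual degree of freedom, so this was not run. Depth limits the smaller promoters, such as Fosl1, most.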
